A study of Mus musculus with 4 samples.

Results

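NRF2, encoded by Nfe2l2, is the transcription factor that drives the antioxidant and detoxification programme of animal cells, and 10 genes of that programme were followed here among the 23281 gene symbols of a mouse RNA sequencing table. They were chosen by name: Nfe2l2 and its inhibitor Keap1, and the target genes Slc7a11, Gclc, Gclm, Gsr, Srxn1, Txnrd1, Nqo1 and Hmox1. All 10 were listed, all were above 0 in every library, and all 10 passed the filter on low values. The table holds 3 libraries of cultured horizontal basal cells (HBCs) and 1 library of respiratory basal cells (RBCs). HBCs are the reserve stem cells of the olfactory epithelium. They came from wildtype mice, were grown to passage 3, and no sort is given for them. RBCs are the stem cells of the airway-type lining of the nose. They were microdissected and sorted as TdTomato+ from KRT5-CreER;Ai9-fl(stop)TdTomato mice, in which a keratin 5-driven inducible Cre switches on a red reporter. The labels are silent on any inducing agent, the age of the animals and any pooling of animals. Culture, tissue, strain and sorting thus all differ between HBC and RBC libraries and cannot be told apart.

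In unstressed cells KEAP1 binds NRF2 in the cytoplasm and hands it to a CUL3 ubiquitin ligase for destruction. Oxidants and electrophiles modify cysteines of KEAP1, NRF2 then escapes, enters the nucleus, pairs with small MAF proteins and binds antioxidant response elements beside its target genes. Because this control acts on the protein, transcript levels of Nfe2l2 and Keap1 do not measure NRF2 activity. The targets make and recycle glutathione and thioredoxin and remove quinones and haem. In the nasal lining, which meets inhaled chemicals, such enzymes are part of xenobiotic defence.

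All levels are depth-scaled FPKM, meaning deposited fragments per kilobase of transcript divided by 1 factor per library. The scale is per length, so genes can be compared in level. Deposited values summed to between 8377230 and 10856000 per library, and depth in reads is unknown. Basal cell transcripts were present in all libraries, which does not tell HBCs from RBCs. Krt5, the keratin of basal cells, averaged 18625 ± 369 in HBC libraries (SD, n = 3) and stood at 26488 in RBC. Krt14 and the basal stem cell factor Trp63 averaged 2594 ± 135 and 546 ± 12.8 in HBC libraries, and stood at 11645 and 4307 in RBC. The 8 basal cell markers listed summed to 26177 to 27309 in HBC libraries and 65537 in RBC. Of these only Itga6 was higher in HBC (1284 ± 21.4 in HBC libraries, 844 in RBC). The RBC library also held transcripts listed here as markers of other cell types. Whether other cells or the sorted basal cells themselves made them was not tested. Of 34 leukocyte, fibroblast and endothelial markers that were tested, 29 were called higher in RBC, beside 34.2% of all genes tested. Called higher in HBC, beside 12.8% of all genes tested, was 1 (Cd68, a lysosomal protein of macrophages that other cells also make). Of the 29, Csf1r, Emr1, C1qb, Tyrobp, Fcer1g, Emcn and Cldn5 were at 0 in all 3 HBC libraries, so their calls are no test. Ptprc, Laptm5, Coro1a, C1qa, C1qc, Mrc1, Lum, Dpt, Pecam1, Cdh5, Kdr, Vwf and Esam averaged below 1 in HBC libraries. They passed the filter on low values only through RBC, so their calls are no independent test either. Summed leukocyte markers came to 768 to 952 in HBC libraries and 15746 in RBC, but Lyz2 alone was 14770 of the RBC sum. The other 19 markers summed to 744 to 934 in HBC libraries and 976 in RBC. Most of that HBC remainder was Cd68 (515 ± 42.6), S100a9 (198 ± 42.4) and S100a8 (117 ± 19.7), which stood at 65.7, 203 and 181 in RBC. Every other leukocyte marker stood higher in RBC than its HBC mean. Fibroblast markers summed to 47.7 to 68.1 in HBC libraries and 7756 in RBC, of which Dcn alone was 6902. Endothelial markers summed to 1.90 to 3.31 in HBC libraries and 93.6 in RBC. Ciliated cell markers summed to 183 to 218 in HBC libraries and 5504 in RBC, and sustentacular cell markers to 1304 to 1344 in HBC libraries and 45034 in RBC. Cyp2a5 made up nearly all of the sustentacular HBC sum (1320 ± 19.9) and most of the RBC sum (33414). The other sustentacular markers were at 0 or close to it in HBC libraries. Secretory and gland markers summed to 119653 to 121775 in HBC libraries and 534410 in RBC. In the last list Ltf made up nearly all of the HBC sum and was called higher in HBC (119163 ± 1162 in HBC libraries, 18086 in RBC), while Bpifa1 led the RBC sum (7.89 ± 2.60 in HBC libraries, 439407 in RBC). Without these 2 genes the sums were 1291 to 1386 in HBC libraries and 76917 in RBC. Among defining markers, Csf1r, Tyrobp, Cyp2g1 and Muc5b were listed at 0 in all 3 HBC libraries. The part these cells play in any RBC value below was not tested. In such bulk samples, fewer cells of a type and less RNA per cell cannot be told apart.

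The 10 genes did not move as a block between HBC and RBC libraries. The cystine transporter gene Slc7a11 and the sulfiredoxin gene Srxn1 were higher in HBC libraries, by 4.97-fold and 3.06-fold. Both subunit genes of glutamate-cysteine ligase, Gclc and Gclm, were lower in HBC libraries and 3.32-fold and 3.09-fold higher in RBC. Limma was used for the test, and a gene was called when its adjusted p was below 0.05 and its change 2-fold or more. This held for 47% of all 16440 genes tested. It called 2 of the 10 genes higher in HBC, beside 12.8% of all genes tested, and 2 of the 10 higher in RBC, beside 34.2% of all genes tested. The other 6 genes differed by less than 2-fold. The RBC value lay outside the range of the 3 HBC libraries for 9 of the 10 genes, but so it did for 94.1% of all genes tested. The median log2 change (HBC minus RBC) of the 10 genes was 0.31 and that of all genes tested was -0.45. The median size of change, regardless of direction, was 0.81 for the 10 genes and 1.06 for all genes tested. All shares and medians given for all genes tested count 1256 genes at 0 in all HBC libraries. The filter made these pass 2-fold towards RBC, so their calls are no test, and none of the 10 genes is of that kind. Other genes averaging below 1 in HBC libraries and called towards RBC passed the filter only through RBC, and these shares count them too. The p-values take their spread from the HBC libraries alone and assume that the single RBC library varies as they do. Whether the 3 cultures derive from different animals is not labelled, so that spread may be technical.

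**Figure D1:**
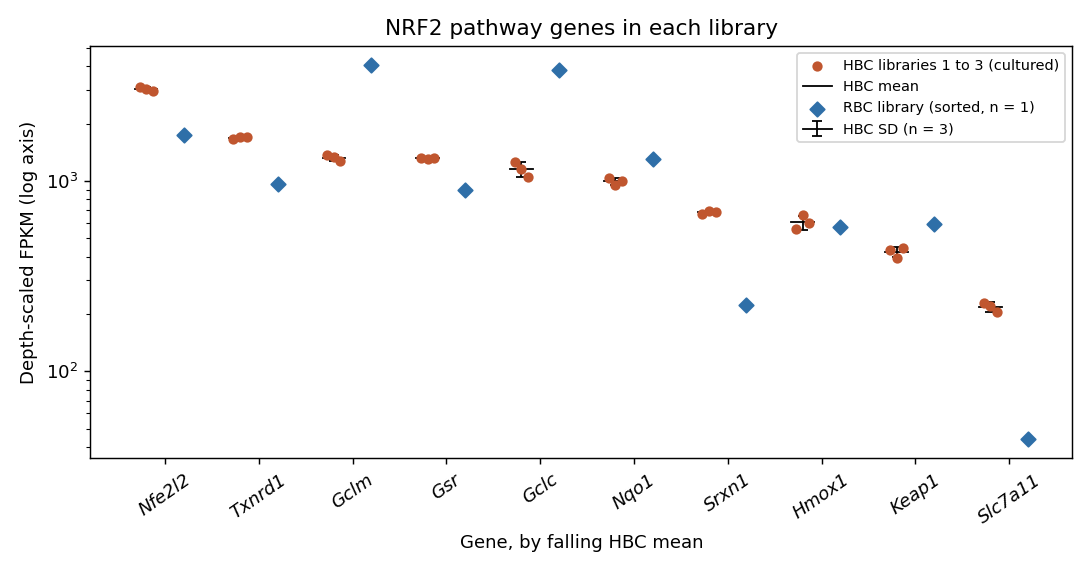
Depth-scaled FPKM (log axis) of the 10 genes, ordered by HBC mean; circles are the 3 HBC libraries with their mean and SD, and diamonds are the single RBC library. Gclm and Gclc have their diamonds far above the circles (4080 and 3817), Srxn1 and Slc7a11 far below (223 and 43.8), and Hmox1 has its diamond among the circles.

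Slc7a11 encodes the subunit of the xc- exchanger that brings cystine into the cell, the entry point for glutathione synthesis. It was at 229, 221 and 205 in HBC libraries 1, 2 and 3, against 43.8 in RBC. All HBC libraries were thus well above RBC. The log2 change was 2.29 ± 0.08 (SE; limma adjusted p = 0.00126), and 3.82% of all genes tested had a change further towards HBC. In both kinds of library it was the least abundant of the 10 genes, with a mean of 218 ± 12.2 in HBC libraries (SD, n = 3).

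Gclc and Gclm encode the catalytic and the modifier subunit of the ligase that joins glutamate to cysteine, the rate-limiting step of glutathione synthesis. Gclc was at 1253, 1151 and 1046 in HBC libraries 1, 2 and 3, against 3817 in RBC. Gclm was at 1361, 1330 and 1270 in these HBC libraries, against 4080 in RBC. The RBC library was above every HBC library for both subunits. The log2 change was -1.73 ± 0.13 for Gclc (SE; limma adjusted p = 0.00430) and -1.63 ± 0.05 for Gclm (SE; limma adjusted p = 0.000956). Changes of that size towards RBC were common in the table: 28.1% of all genes tested changed further in that direction than Gclc, and 29.5% further than Gclm. Both shares count genes at 0 in all HBC libraries. The subunits kept similar proportions, with a Gclc to Gclm ratio of 0.870 ± 0.0488 in HBC libraries (SD, n = 3) and 0.936 in RBC. Such a ratio within a library does not depend on the scaling of libraries. By contrast, the ratio of Slc7a11 to Gclc was 0.190 ± 0.00680 in HBC libraries (SD, n = 3) and 0.0115 in RBC. The pairs of genes for which ratios are given were chosen after the values were seen.

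Srxn1 encodes sulfiredoxin, which restores peroxiredoxins that have been over-oxidised by peroxide. It was at 667, 695 and 688 in HBC libraries 1, 2 and 3, against 223 in RBC. The 3 HBC libraries lay close together and all far above RBC. The log2 change was 1.61 ± 0.03 (SE; limma adjusted p = 0.000400), and 7.07% of all genes tested changed further towards HBC.

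The antioxidant response element is usually written TGACNNNGC, and a related form is TGAGNNNGC. These letters were searched on both strands in the 250 bases before the start of each gene, in RefSeq windows of build GRCm38.p6. The second form, and its single run TGAGTCAGC, were added after the windows had been seen. Windows were given for 7 of the 10 genes (9 windows in all, 3 of them for Txnrd1), not for Gclc, Hmox1 and Gsr. The first form occurred in 3 of the 9 windows, against 10.2% of 32851 windows of all genes. The added form brought this to 5 of the 9 windows, against 23% of all windows for either form. The windows of the called genes Srxn1, Slc7a11 and Gclm are shown because these genes changed in opposite directions. Capitals mark a match, and a match on the opposite strand appears as its reverse complement. Each is read 5′ to 3′ on the strand of the gene. Srxn1 lies on the plus strand of chromosome 2 (window chr2:152105274-152105523), Slc7a11 on the minus strand of chromosome 3 (chr3:50443614-50443863) and Gclm on the plus strand of chromosome 3 (chr3:122245307-122245556).
Srxn1: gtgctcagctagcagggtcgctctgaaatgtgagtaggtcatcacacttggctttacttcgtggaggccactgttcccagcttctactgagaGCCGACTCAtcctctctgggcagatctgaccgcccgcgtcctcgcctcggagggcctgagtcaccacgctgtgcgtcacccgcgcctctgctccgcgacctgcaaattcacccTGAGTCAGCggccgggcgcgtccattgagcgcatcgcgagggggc
Slc7a11: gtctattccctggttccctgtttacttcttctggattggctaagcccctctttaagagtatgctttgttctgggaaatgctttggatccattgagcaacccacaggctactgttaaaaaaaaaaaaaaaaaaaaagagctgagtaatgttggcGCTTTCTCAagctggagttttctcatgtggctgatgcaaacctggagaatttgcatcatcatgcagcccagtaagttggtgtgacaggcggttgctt
Gclm: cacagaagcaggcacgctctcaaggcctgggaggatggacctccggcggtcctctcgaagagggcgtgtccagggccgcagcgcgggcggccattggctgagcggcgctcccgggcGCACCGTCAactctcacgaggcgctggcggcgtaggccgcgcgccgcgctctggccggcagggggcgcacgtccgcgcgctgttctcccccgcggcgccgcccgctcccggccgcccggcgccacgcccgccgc

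Srxn1 held 2 separate matches. The one nearer the gene, TGAGTCAGC, starts 45 bases before the gene start, and this exact run stood in 0.347% of all windows on either strand. Since the run was picked because it was seen there, that share says nothing about Srxn1. Slc7a11 held the opposite-strand run TGAGAAAGC from 97 to 89 bases before its start, and Gclm held TGACGGTGC on the opposite strand from 134 to 126 bases before its start. Of the genes that were not called, Nfe2l2 held TGACTCCGC and 1 of the Txnrd1 windows held TGACAAAGC on the opposite strand. The windows of Keap1 and Nqo1 held neither form. The stricter run TGACTCAGC, present in 0.39% of all windows, was in none of the 9. Genes higher in HBC (Srxn1, Slc7a11) and a gene higher in RBC (Gclm) thus both held such letters. These are descriptions of short windows, and many known elements lie further from the gene.

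Txnrd1 and Gsr encode the reductases that use NADPH to regenerate thioredoxin and glutathione. Txnrd1 was at 1655, 1710 and 1704 in HBC libraries 1, 2 and 3, against 958 in RBC. Gsr was at 1312, 1307 and 1318 in these libraries, against 895 in RBC. Both stood above RBC in every HBC library, by 1.76-fold for Txnrd1 and 1.47-fold for Gsr, and neither reached the 2-fold minimum. The log2 change was 0.82 ± 0.03 for Txnrd1 (SE; limma adjusted p = 0.00106) and 0.55 ± 0.01 for Gsr (SE; limma adjusted p = 0.000438). Gsr was the steadiest of the 10 genes, with a coefficient of variation of 0.444% over the HBC libraries, where the median of the 10 genes was 3.75%. Per length, Srxn1 stood at 0.404 ± 0.00174 of the level of Txnrd1 in HBC libraries (SD, n = 3) and at 0.233 of it in RBC.

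Nqo1 encodes the quinone reductase that is the classical readout of NRF2, and Hmox1 encodes haem oxygenase 1, which breaks down haem and is also abundant in macrophages. Nqo1 was at 1032, 953 and 1000 in HBC libraries 1, 2 and 3, against 1300 in RBC. The RBC value was above all HBC values, but by 1.31-fold and so under the minimum (log2 change -0.39 ± 0.06, SE; limma adjusted p = 0.0168). Hmox1 was at 557, 660 and 600 in HBC libraries, against 575 in RBC. The RBC value of Hmox1 lay between HBC values. Its log2 change was 0.07 with a 95% interval from -0.35 to 0.49 (limma adjusted p = 0.638), which leaves a change of up to that size in either direction possible. The macrophage markers Csf1r and C1qb were listed at 0 in all HBC libraries and stood at 35.5 and 69.2 in RBC, whereas Cd68 averaged 515 ± 42.6 in HBC libraries and stood at 65.7 in RBC. All leukocyte markers without Lyz2 summed to 744 to 934 in HBC libraries and 976 in RBC. With Lyz2 they summed to 768 to 952 in HBC libraries and 15746 in RBC. Most of the HBC sum was Cd68, S100a9 and S100a8, and every other leukocyte marker stood higher in RBC than its HBC mean. The part of such cells in the Hmox1 level was not tested.

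Nfe2l2 was the most abundant of the 10 genes in HBC libraries. It was at 3113, 3021 and 2972 in HBC libraries 1, 2 and 3, against 1750 in RBC. Keap1, its inhibitor, was at 431, 396 and 446 in HBC libraries, against 591 in RBC. Nfe2l2 was 1.73-fold higher in HBC (log2 change 0.79 ± 0.04, SE; limma adjusted p = 0.00175), and Keap1 was 1.39-fold higher in RBC (log2 change -0.48 ± 0.09, SE; limma adjusted p = 0.0259). Neither reached the 2-fold minimum. The ratio of Nfe2l2 to Keap1 was 7.17 ± 0.490 in HBC libraries (SD, n = 3) and 2.96 in RBC, and the lowest HBC library had a ratio of 6.66.

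The order of levels differed between the kinds of library. In HBC libraries the means ran from Nfe2l2 (3036 ± 71.3) through Txnrd1 (1690 ± 30.0), Gclm (1320 ± 46.0), Gsr (1312 ± 5.82), Gclc (1150 ± 104), Nqo1 (995 ± 39.8), Srxn1 (683 ± 14.1), Hmox1 (605 ± 52.0) and Keap1 (424 ± 25.9) to Slc7a11 (SD, n = 3). Of the neighbours in this order, Gclm and Gsr overlapped between libraries and the others did not. In the RBC library Gclm and Gclc came first, then Nfe2l2, followed by Nqo1, Txnrd1, Gsr, Keap1, Hmox1, Srxn1 and Slc7a11, with no replicate to judge neighbours by. The 10 genes together made up 0.111% to 0.117% of the summed values in HBC libraries and 0.153% in RBC.

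**Figure D2:**
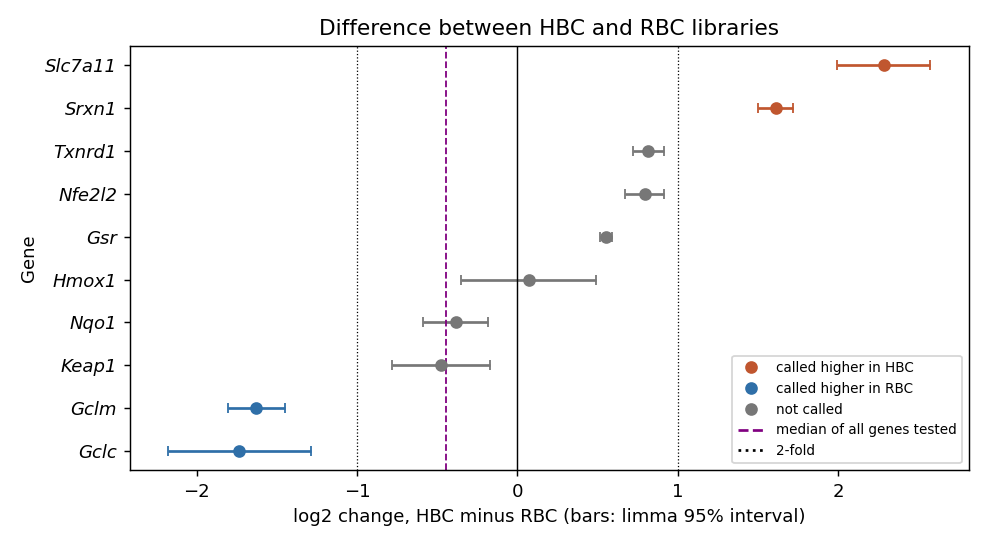
Log2 change (HBC minus RBC, horizontal axis) of each of the 10 genes with limma's 95% interval; dotted lines mark 2-fold and the dashed line the median of all genes tested (-0.45). Slc7a11 and Srxn1 lie beyond the right dotted line, Gclm and Gclc beyond the left one, and the other 6 genes lie between them.

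Because all genes tested had a median change of -0.45, the 10 genes were also set against that median. Relative to it, Slc7a11 stood at 2.73, Srxn1 at 2.06, Txnrd1 at 1.27, Nfe2l2 at 1.24, Gsr at 0.999, Hmox1 at 0.52, Nqo1 at 0.06, Keap1 at -0.03, Gclm at -1.18 and Gclc at -1.29 on the log2 scale. Keap1 and Nqo1 thus sat at the middle of the table. The calls of Slc7a11, Srxn1, Gclc and Gclm held under all 11 alternatives tried. Changing the filter left the log2 changes of the 10 genes as they were, and no alternative varied the single RBC library. Setting the library medians equal moved the median of all genes by 0.49. Nfe2l2, Txnrd1 and Gsr then passed the 2-fold minimum too (log2 changes 1.30, 1.32 and 1.06). So 5 of the 10 genes were called higher in HBC, beside 3781 of the 16440 genes tested. Under that scaling Nqo1 (0.12) and Keap1 (0.03) turned to the HBC side without a call. Of all called genes, the proportion higher in HBC was 27.2% as reported, 45.7% with equal medians and 53.7% under quantile normalization.

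**Figure D3:**
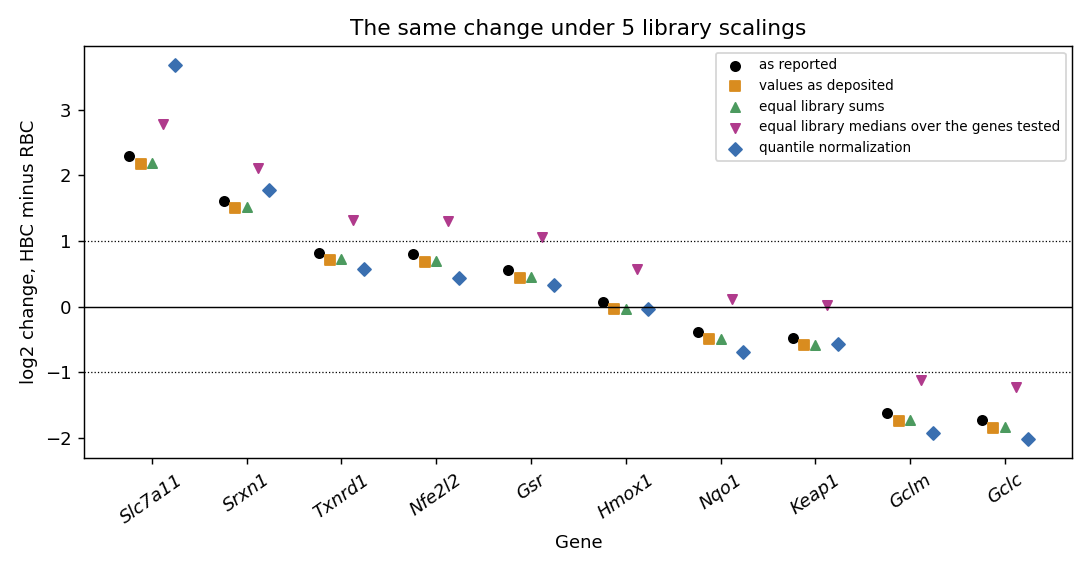
Log2 change (HBC minus RBC, vertical axis) of each of the 10 genes under 5 scalings of the libraries, one symbol per scaling; dotted lines mark 2-fold. Slc7a11 and Srxn1 stay above the upper line and Gclm and Gclc below the lower line under all 5, while Hmox1, Nqo1 and Keap1 cross 0 under at least 1 of them.

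Some of the 10 genes share their locus with other annotated genes in GENCODE M21. Gclm, Slc7a11, Txnrd1 and Keap1 overlap genes on the opposite strand, and no source used here says whether reads were counted by strand, so reads of such partners cannot be told apart. Txnrd1 also overlaps the protein-coding gene Eid3 on its own strand, Gclm a transcribed pseudogene (Gm6061), and Slc7a11 the processed pseudogene Gm37692 and the gene Gm37498. Nfe2l2 and Gsr each overlap a small RNA gene on their own strand. Strand would not separate any of these. Nqo1, Gclc, Hmox1 and Srxn1 overlap no other gene there.

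A further 60 genes of the pathway in 7 lists put the 10 genes in context. Of 59 tested, 11 were called higher in HBC (18.6%, beside 12.8% of all genes tested) and 18 higher in RBC (30.5%, beside 34.2%), and 30 were not called. The 18 include Sod3, and the 34.2% includes other genes at 0 in all HBC libraries, whose calls are no test. Also among the 18 are Nfe2 and Ggt1, which averaged below 1 in HBC libraries and passed the filter only through RBC. The median log2 change of the 59 genes was -0.02. In each list the 3 called genes with the largest changes and the most abundant gene are named.

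Among 13 partners and regulators of NRF2, 2 were called higher in HBC and 4 higher in RBC. Sqstm1, the autophagy receptor p62 that can draw KEAP1 away from NRF2, was 3.59-fold higher in HBC (12043 ± 298 in HBC libraries, 3356 in RBC; limma adjusted p = 0.000576). Btrc, a ubiquitin ligase adaptor that marks NRF2 for destruction independently of KEAP1, averaged 45.2 ± 3.30 in HBC libraries and was at 189 in RBC (limma adjusted p = 0.00265). Bach2, a repressor related to NRF2, averaged 3.18 ± 0.282 in HBC libraries and was at 42.5 in RBC (limma adjusted p = 0.000920). Nfe2, a blood-cell relative of NRF2, averaged 0.210 ± 0.364 in HBC libraries, a value of the order of single reads, and was at 6.32 in RBC. It passed the filter on low values only through RBC, so its call is no independent test. Nfe2 was no longer called in 5 of 10 alternatives, among them when HBC library 1 (0.0712) or 2 (0.0717) was left out (limma adjusted p, range over the alternatives 0.000330 to 0.861). The other called genes, named after their values were seen, were the NRF2 relatives Nfe2l1, higher in HBC (2731 ± 48.6 in HBC libraries, 1225 in RBC), and Nfe2l3, higher in RBC (299.5 ± 9.54 in HBC libraries, 799 in RBC). The small MAF partners Mafg, Mafk and Maff and the repressor Bach1 were looked at after their values had been seen, and none was called. Mafg averaged 513 ± 21.3 in HBC libraries and stood at 494 in RBC. Bach1 averaged 124 ± 4.63 in HBC libraries and stood at 200.1 in RBC.

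Among 10 further genes of glutathione synthesis and use, 3 were called in each direction. Chac1, an enzyme that degrades glutathione, was 36.6-fold higher in HBC (1690 ± 36.0 in HBC libraries, 46.1 in RBC; limma adjusted p = 2.62e-05). In the other direction, Ggt1, which splits glutathione outside the cell, averaged 0.936 ± 0.392 in HBC libraries and was at 34.1 in RBC. Ggt1 passed the filter on low values only through RBC, so its call is no independent test. The secreted peroxidase Gpx3 averaged 12.3 ± 4.96 in HBC libraries and was at 135 in RBC (limma adjusted p = 0.0182). Gpx3 was no longer called when HBC library 3 was left out (limma adjusted p = 0.0819, range over the alternatives 0.00769 to 0.0819). The other called genes, also named after their values were seen, were Ggct and Glrx, higher in HBC (139 ± 7.72 and 348 ± 26.9 in HBC libraries, 48.0 and 140.2 in RBC), and Gpx2, a peroxidase of epithelia, higher in RBC (498 ± 50.1 in HBC libraries, 3195 in RBC). Gpx1, the most abundant of the list, was not called (7021 ± 493 in HBC libraries, 4320 in RBC).

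Among 11 thioredoxins and peroxiredoxins, 2 were called in each direction. Prdx3, the mitochondrial peroxiredoxin, was 2.68-fold higher in HBC (1467 ± 74.4 in HBC libraries, 547 in RBC; limma adjusted p = 0.00224). Txn1, thioredoxin itself, named after its values were seen, was also higher in HBC (6719 ± 318 in HBC libraries, 2563 in RBC). Txnip, which binds and inhibits thioredoxin, averaged 440 ± 22.9 in HBC libraries and was 19.2-fold higher in RBC at 8438 (limma adjusted p = 0.000331). Prdx6 averaged 5511 ± 86.8 in HBC libraries and was at 17517 in RBC (limma adjusted p = 0.000366). Prdx1, a substrate of sulfiredoxin and the most abundant of the list in HBC libraries, but below Prdx6 in RBC, was not called (16383 ± 1082 in HBC libraries, 9323 in RBC).

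Of 6 genes of NADPH supply, 1 was called in each direction. Malic enzyme Me1 averaged 56.7 ± 1.67 in HBC libraries and was at 330.4 in RBC (limma adjusted p = 0.000561). Taldo1, transaldolase of the pentose phosphate pathway, averaged 6033 ± 192 in HBC libraries and was at 2986 in RBC, at the 2-fold minimum (log2 change 1.01). It fell below that minimum without HBC library 2 (log2 change 0.99). Of 6 genes of haem breakdown and iron storage, 1 was called higher in HBC and 2 higher in RBC. Ferritin heavy chain Fth1 averaged 103288 ± 2230 in HBC libraries and was at 39121 in RBC (limma adjusted p = 0.0275), but it was no longer called when HBC library 1 (0.0913) or 2 (0.105) was left out (limma adjusted p, range over the alternatives 0.00633 to 0.265). Blvrb, a biliverdin reductase, averaged 591 ± 45.1 in HBC libraries and was at 2223 in RBC (limma adjusted p = 0.00262). The iron exporter Slc40a1 averaged 8.82 ± 4.18 in HBC libraries and was at 150.2 in RBC. It was no longer called when HBC library 1 (0.0866) or 2 (0.0557) was left out (limma adjusted p, range over the alternatives 0.00655 to 0.0866).

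Among 10 tested detoxification targets of NRF2, 2 were called higher in HBC and 4 higher in RBC. Akr1b8, an aldo-keto reductase, was 11.3-fold higher in HBC (701 ± 25.6 in HBC libraries, 62.3 in RBC; limma adjusted p = 0.000245). The carbonyl reductase Cbr3 averaged 59.3 ± 10.1 in HBC libraries and was at 938 in RBC (limma adjusted p = 0.00293). Aldh3a1, an aldehyde dehydrogenase and the most abundant of the list by the mean of HBC and RBC levels, averaged 2364 ± 49.0 in HBC libraries and was 6.97-fold higher in RBC at 16473 (limma adjusted p = 0.000130). In HBC libraries the epoxide hydrolase Ephx1, named after its values were seen, stood higher than Aldh3a1, and it was not called (7448 ± 178 in HBC libraries, 6823 in RBC). The other called genes, named after their values were seen, were Osgin1, just past the 2-fold minimum towards HBC (1994 ± 47.9 in HBC libraries, 992 in RBC), and Cbr1 and Ugdh, higher in RBC (693 ± 51.6 and 554 ± 12.2 in HBC libraries, 1649 and 1289 in RBC). Of 3 superoxide dismutases, Sod1 was called higher in RBC (6040 ± 163 in HBC libraries, 15026 in RBC; limma adjusted p = 0.00111). Sod3, the extracellular form, had a listed value of 0 in each HBC library and 5.53 in RBC, so its call is no test. Markers of sustentacular cells, which are rich in such enzymes, summed to 1304 to 1344 in HBC libraries and 45034 in RBC. Nearly all of the HBC sum was Cyp2a5. The part of sustentacular cells in these levels was not tested.

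**Figure D4:**
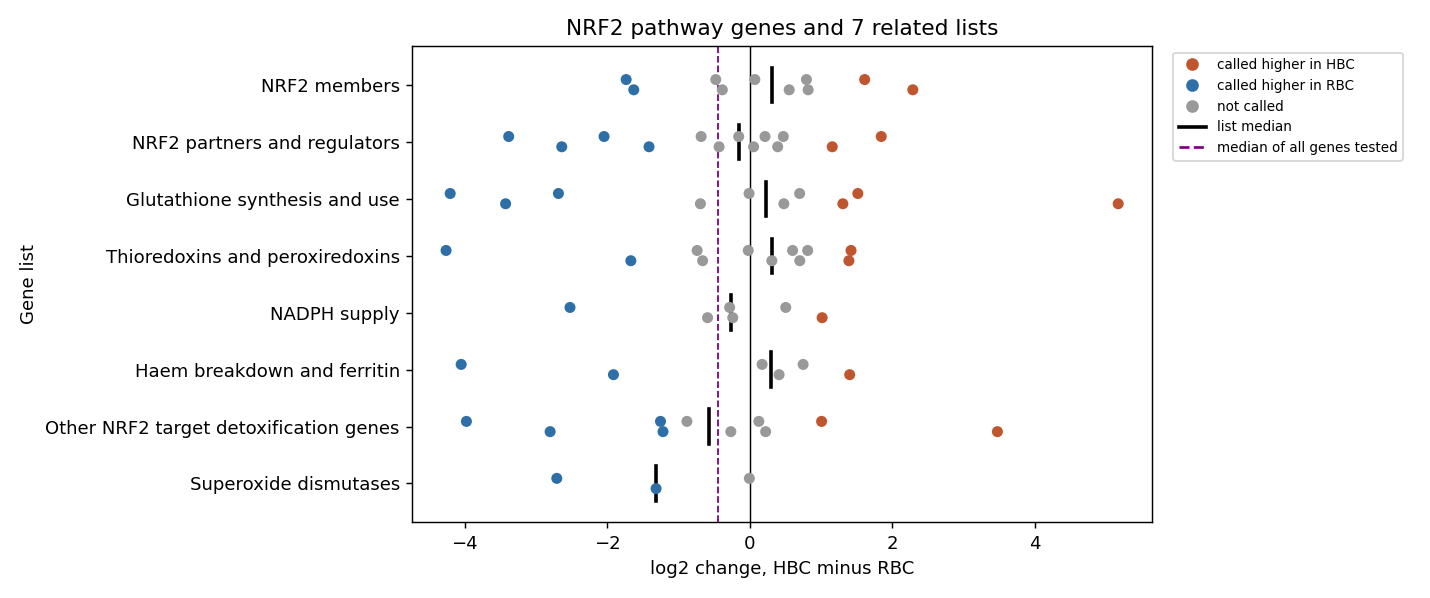
Log2 change (HBC minus RBC, horizontal axis) of each tested gene in the 10-gene set (top) and 7 related lists, coloured by call; black bars are list medians and the dashed line is the median of all genes tested (-0.45). Called genes lie on both sides of 0 in every list except the superoxide dismutases, and Chac1 is the point furthest to the right.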

How the data were processed

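RNA was sequenced from 3 HBC cultures and 1 sorted RBC sample. The authors deposited 1 table of values named FPKM, 1 column per library. STAR, Cufflinks 2.2.1, Cuffnorm and build mm9 are named, without roles, per the submitters' processing notes. No source used here gives the annotation, the handling of strand or any filter. In genes with all values below 4, 16.8% to 26% had deposited values within 2% of each other in HBC library 1 and another library, and 0.45% to 1.85% had values within 2% of the ratio of the scale factors below. Depth thus did not appear to be divided out. Pairs without HBC library 1 have near-equal factors and cannot show this. Each library was therefore divided by its median ratio to the gene-wise geometric mean, taken over 11134 genes at 10 or more in all libraries (factors 0.843, 1.05 and 1.07 for HBC libraries 1, 2 and 3 and 1.06 for RBC).

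Genes with a mean of the HBC and RBC means of at least 1 were tested (16440). The model was limma 3.58.1 (R 4.3.3) on log2(value + 1) (eBayes with trend, two-sided, Benjamini-Hochberg over all genes tested). Changes on this scale understate those of low genes. Of the genes tested, 1256 were at 0 in all HBC libraries, and their calls are no test. Other genes averaging below 1 in HBC libraries passed the filter only through RBC, so their calls towards RBC are no independent test. A listed 0 can be a failed estimate. The procedure was tested on simulated data. There the single library was drawn with the spread of the HBC libraries. It thus cannot check the assumption that the RBC library varies as they do. Members, lists and scaling were chosen with earlier results of these data known. Named genes were all 10 members and, per list, the 3 called genes with the largest change and the most abundant gene. Alternatives covered scaling, pseudocount, filter and each HBC library left out. Promoter windows are from RefSeq, build GRCm38.p6, matched by symbol.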

Additional observations from a re-analysis of the deposited data

How the results depend on the processing

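Of 110 values (10 genes under 11 alternatives), 102 kept their direction and their side of the threshold, 3 gained a call and 5 changed sign. The 102 include the filter alternatives, which cannot move the log2 change of a gene, and no alternative varied the single RBC library. They also include Nfe2l2, Keap1, Nqo1, Txnrd1 and Gsr with values as deposited. There each kept its direction, but its limma adjusted p was no longer below 0.05. The same held for Keap1 without HBC library 1 or 3 and for Nqo1 without HBC library 3. With library medians set equal over the genes tested, 3781 genes were called higher in HBC against 2105 as reported, the 10 NRF2 genes gave 5 such calls and the related lists 17 against 11. Quantile normalization gave 3663 genes higher in HBC and 3155 higher in RBC, against 5621 as reported. The causes of these shifts were not tested. The log2 change of Keap1 turned to 0.027 and that of Nqo1 to 0.12 with equal medians, and that of Hmox1 to -0.043 with values as deposited, -0.031 with equal sums and -0.039 under quantile normalization. Leaving out each HBC library in turn gave 1993 to 2005 genes higher in HBC and 4950 to 5030 higher in RBC, 2 of the 10 genes in each direction every time, and 8 to 11 list genes higher in HBC and 16 to 17 higher in RBC. Of the named list genes, Sod1 lost its call with equal medians (log2 change -0.81), where Gpx1 (1.20) and Prdx1 (1.32) gained one. Taldo1 also lost its call with values as deposited (0.90), equal sums (0.91) and quantile normalization (0.71), and Fth1 with values as deposited (1.29; limma adjusted p = 0.265) and a pseudocount of 0.1 (1.40; 0.123). Nfe2 and Sod3 lost theirs under quantile normalization (-0.099 and -0.19) and with a pseudocount of 10 (-0.68 and -0.63), and Nfe2 with a pseudocount of 0.1 (-5.05). Depth in reads is unknown, and with 1 RBC library no RBC spread could be measured. No paired analysis was possible because the groups share only the number of the single RBC replicate.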
